A study of Mus musculus with 4 samples.

Results

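The miRNA hairpins Mir143, Mir145a, Mir199a-1, Mir199a-2, Mir199b and Mir214 were examined in small RNA libraries of mouse fetal liver, as 6 of the 2202 hairpins of the GENCODE vM21 annotation. They were chosen by name. Their reads were those that matched a hairpin without mismatch, together with reads that matched except for 1 to 3 extra nucleotides at the 3' end, called tailed reads here. A read with a mismatch in its last 3 bases also counts as tailed by this rule. The hairpins gave 99120 of 21875540 reads in Ago2 CD replicate 1 and 47288 of 15238066 in Ago2 CD replicate 2, against 35160 of 15841697 reads in wildtype replicate 1 and 48529 of 13138065 in wildtype replicate 2. Ago2 CD denotes a catalytic dead mutant of Ago2, an Argonaute that binds miRNAs and in its active form slices fully matched RNA. The other genotype was wildtype. Both genotypes were sampled as fetal liver that was frozen on dissection and extracted with Trizol, and both had 2 libraries. Strain, age, sex, the mutated residue and whether the allele was homozygous were not given in the labels. The design text calls the libraries biological replicates.

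The hairpins of the mir-143 and mir-145 cluster are known for their high level in smooth muscle and in other contractile mesenchymal cells, where they act on regulators of the cytoskeleton and of cell proliferation. The mir-199 hairpins lie opposite to introns of dynamin genes. Mir199a-2 and Mir214 are made from Dnm3os, a long noncoding RNA of developing mesenchyme whose loss in mice gives skeletal defects. A hairpin is cut by Drosha and Dicer into a 5p and a 3p arm, and Argonaute keeps mainly one of them. The bases after the first one of the kept arm form the seed that pairs with targets.

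Sequences are shown for the hairpins of the mir-199 family and Mir214, since the results below turn on how reads of near-identical sequence and reads of opposite arms of the same hairpin compare between libraries. They are RefSeq sequences of build GRCm38.p6, printed 5' to 3', with the annotated mature arms in capitals. Of the 6 hairpins 4 were found in the RefSeq table. Mir199a-1 lies at chr9:21496495-21496564 on the minus strand, antisense to an intron of Dnm2. Mir199a-2 lies at chr1:162217814-162217923 and Mir214 at chr1:162223368-162223477, both on the plus strand, in an exon of Dnm3os, antisense to an intron of Dnm3 and 5444 bases apart. Mir199b lies at chr2:32318460-32318569 on the plus strand, antisense to an intron of Dnm1. Its 5p arm has no entry of its own in the table.
Mir199a-1: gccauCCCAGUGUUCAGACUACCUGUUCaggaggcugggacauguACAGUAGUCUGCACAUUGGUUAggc
Mir199a-2: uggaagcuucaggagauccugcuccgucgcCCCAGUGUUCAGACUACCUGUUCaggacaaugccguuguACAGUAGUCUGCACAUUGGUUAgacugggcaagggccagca
Mir199b: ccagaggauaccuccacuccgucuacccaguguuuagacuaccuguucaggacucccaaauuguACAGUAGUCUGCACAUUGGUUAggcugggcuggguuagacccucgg
Mir214: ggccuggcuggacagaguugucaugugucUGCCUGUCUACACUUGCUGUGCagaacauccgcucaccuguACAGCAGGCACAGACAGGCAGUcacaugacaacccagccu

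The arms of these 4 hairpins fall into 4 seeds, which are printed here in capitals as bases 2 to 8. The 3p arm is the same in all 3 mir-199 hairpins, so that its reads could not be divided between them. The 5p arms of Mir199a-1 and Mir199a-2 are also the same, while the most frequent 23 nt read of the Mir199b 5p arm, which is printed in place of a RefSeq entry, differs from theirs by C10U. In this token the base of the mir-199a arm comes first, positions are counted from the 5' end of the arm, and the base of Mir199b follows. The change lies outside the seed.
mmu-miR-199a-5p: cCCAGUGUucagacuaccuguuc
Mir199b 5p read: cCCAGUGUuuagacuaccuguuc
mmu-miR-199a-3p and mmu-miR-199b-3p: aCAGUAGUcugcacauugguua
mmu-miR-214-5p: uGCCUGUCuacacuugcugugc
mmu-miR-214-3p: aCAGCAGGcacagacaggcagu

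Of the templated 3p reads of the family 99.96% matched all 3 hairpins, and of the mir-199a 5p reads 99.4% matched both mir-199a hairpins. Reads that ran past the shared part named a single hairpin. Mir199a-1 alone had 23 and 5 such 5p reads in Ago2 CD replicates 1 and 2, against 1 and 20 in wildtype replicates 1 and 2. Mir199a-2 alone had 26 and 79 in Ago2 CD, against 41 and 14 in wildtype. Both mir-199a loci were therefore represented, with reads too few to give their shares of the arm. The 3 merged arms are called Mir199-3p, Mir199a-5p and Mir199b-5p below, which with both arms of Mir143, Mir145a and Mir214 makes 9 arms.

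The 4 libraries differed in another way than genotype. The longest read was 46 nt in Ago2 CD replicate 1 and wildtype replicate 2, and 50 nt in Ago2 CD replicate 2 and wildtype replicate 1, so that each length held 1 library of each genotype. Of all reads of 18 to 27 nt, those ending in C made up 9.55% and 37.2% in Ago2 CD replicates 1 and 2, against 22.6% and 6.16% in wildtype replicates 1 and 2. Reads ending in the letters TGG made up 0.000169% in Ago2 CD replicate 2 and 6.3e-05% in wildtype replicate 1, against 3.17% in Ago2 CD replicate 1 and 2.38% in wildtype replicate 2. Wildtype replicate 1 stood apart in some miRNAs of striated muscle. It had 364 counts per 1000000 arm reads (CPM) for miR-133, 212 for miR-1a-3p and 131 for miR-206-3p, against at most 16.9, 16.4 and 5.36 in the other libraries. The muscle miR-499-5p went the other way, at 763 and 297 CPM in Ago2 CD replicates 1 and 2, against 242 and 447 in wildtype replicates 1 and 2. The whole list of 8 muscle hairpins summed to 876 and 475 CPM in Ago2 CD, against 1085 and 537 in wildtype. The part of such tissue in the levels below was not tested. The neural miR-9-5p followed the longest read, with 216 and 13.8 CPM in Ago2 CD replicates 1 and 2, against 10.4 and 166 in wildtype replicates 1 and 2. miR-122-5p, the main hepatocyte miRNA, was at 62615 and 27526 CPM in Ago2 CD and at 19052 and 48641 in wildtype, as in liver. All results are therefore given for each library and within the 2 pairs of equal longest read.

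No arm of the 6 hairpins passed the test between genotypes, and levels of most arms differed more between libraries of 50 and 46 nt than between Ago2 CD and wildtype. Among the 9 arms, the 3 of the mir-199 family had the lowest log2 fold changes of Ago2 CD over wildtype, at -0.43 to -0.28. The median absolute log2 fold change of all 583 arms was 0.30, so that values of this size were common. The 3 mir-199 arms were lower in the mutant within both pairs on the TMM scale used here, while the fit with all arm reads as library size had them higher. The arms of Mir143, Mir145a and Mir214 lay between -0.14 and 0.09. Levels are templated reads of 18 to 27 nt, scaled to CPM with TMM factors, and the test was edgeR's quasi-likelihood test over 583 arms with Benjamini-Hochberg adjustment. In it 2 of the 583 arms were called at an adjusted p under 0.05, or 0.343%, and none of them was among the 9; 17 arms had an unadjusted p under 0.05, again with no member. The adjusted p of each of the 9 arms was 0.998.

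Mir143-3p, the kept arm of Mir143, had the highest mean CPM of the 9 over the 4 libraries, where it ranked 72nd of all arms, though Mir199a-5p was higher in both libraries of 50 nt. It had 28408 and 7059 reads in Ago2 CD replicates 1 and 2, which were 1426 and 742 CPM, against 4426 and 11898 reads in wildtype replicates 1 and 2, which were 741 and 1344 CPM. The genotypes overlapped completely, and both libraries of 50 nt lay below both of 46 nt, with a log2 difference of -0.90 (50 over 46 nt). In bulk tissue, fewer cells that make a miRNA and less of it per cell cannot be told apart. The log2 fold change of Ago2 CD over wildtype was 0.06 ± 0.49 (SE), and it was 0.09 within the 46 nt pair and 0.00 within the 50 nt pair. Mir143-5p, the arm that is mostly discarded, split the same way, at 17.3 and 8.31 CPM in Ago2 CD against 7.20 and 20.4 CPM in wildtype. Its fold change was -0.11 ± 0.69.

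Mir145a-5p, the kept arm of the hairpin next to Mir143, varied less over the libraries than Mir143-3p. It was at 627 and 607 CPM in Ago2 CD and at 580 and 755 CPM in wildtype, means of 617 ± 14.3 and 667 ± 124 CPM (SD, n = 2 each). The log2 fold change was -0.11 ± 0.28, with -0.27 and 0.07 within the 46 and 50 nt pairs. Mir145a-3p was at 33.4 and 41.3 CPM in Ago2 CD and at 37.9 and 33.0 CPM in wildtype, a fold change of 0.08 ± 0.34. Mir143-3p and Mir145a-5p did not keep a fixed ratio over the libraries, since the first followed the longest read and the second hardly did.

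**Figure D1:**
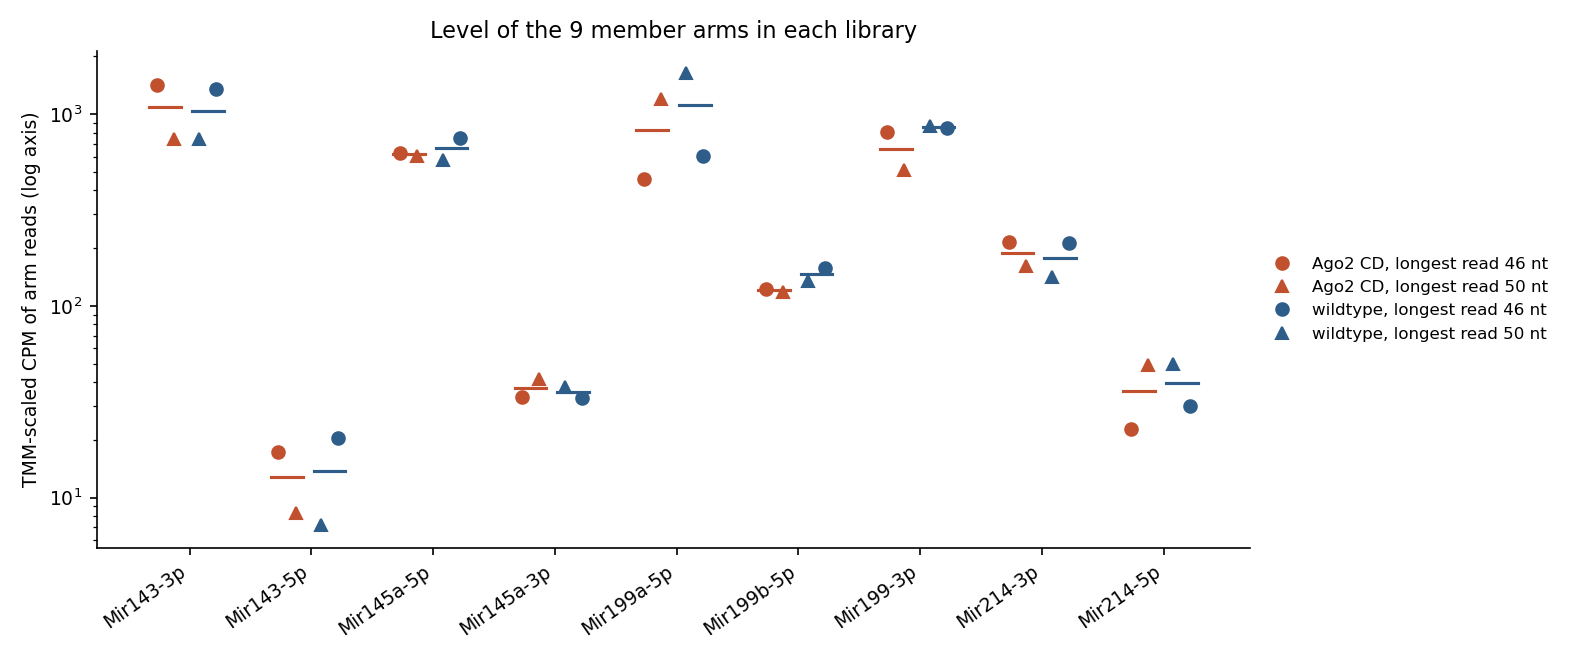
Level of the 9 arms in each library as TMM-scaled CPM of templated reads, on a log axis. Points are libraries, with Ago2 CD left of wildtype in each column, circles for a longest read of 46 nt and triangles for 50 nt, and bars are means of 2 libraries. The genotypes overlapped for 7 arms, and Mir199b-5p and Mir199-3p were lower in both Ago2 CD libraries on this scale, though higher in the fit with all arm reads as library size. Of all arms, 29.7% did not overlap between genotypes.

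Mir199a-5p had the widest range in CPM of the 9 arms. It had 9147 and 11399 reads in Ago2 CD replicates 1 and 2, or 459 and 1199 CPM, against 9739 and 5377 reads in wildtype replicates 1 and 2, or 1631 and 607 CPM. The library of 50 nt was the higher one of each genotype, with a log2 difference of 1.40 (50 over 46 nt). Within each pair the Ago2 CD library was the lower one, by log2 fold changes of -0.40 at 46 nt and -0.44 at 50 nt, while the fit without read length gave -0.43 ± 0.70.

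Mir199b-5p, which differs from Mir199a-5p by C10U, did not follow the longest read. It was at 123 and 118 CPM in Ago2 CD, against 135 and 157 CPM in wildtype, so that both Ago2 CD libraries lay below both wildtype libraries. Its log2 fold change was -0.28 ± 0.28, with -0.35 and -0.20 within the 46 and 50 nt pairs, and the difference of 50 over 46 nt libraries was -0.14. Reads of the Mir199b 5p arm made up 21.1% and 8.97% of all mir-199 5p reads in Ago2 CD replicates 1 and 2, against 7.66% and 20.5% in wildtype replicates 1 and 2 (exact Clopper-Pearson 95% intervals of at most ± 0.970 percentage points). This share within the family thus followed the longest read and not the genotype.

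Mir199-3p, the arm shared by the 3 hairpins, was at 805 and 513 CPM in Ago2 CD and at 869 and 850 CPM in wildtype, means of 659 ± 206 and 859 ± 13.6 CPM (SD, n = 2 each). The ranges did not overlap, and most of the difference lay in Ago2 CD replicate 2. The log2 fold change was -0.38 ± 0.33, with -0.08 within the 46 nt pair and -0.76 within the 50 nt pair. Without Ago2 CD replicate 2 it was -0.08.

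Mir214-3p was at 216 and 162 CPM in Ago2 CD and at 142 and 213 CPM in wildtype, with a log2 fold change of 0.09 ± 0.36. Mir214-5p was at 22.8 and 49.3 CPM in Ago2 CD and at 49.6 and 30.04 CPM in wildtype, with -0.14 ± 0.54. The arms of this hairpin moved in opposite directions with the longest read, with log2 differences of 50 over 46 nt libraries of -0.50 on its 3p side and 0.91 on its 5p side. Within the 46 and 50 nt pairs Mir214-3p had log2 fold changes of 0.02 and 0.19, and Mir214-5p -0.39 and -0.01.

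Of the 9 arms, 3 were higher and 6 lower in Ago2 CD, with a median log2 fold change of -0.11, against 0.04 for all 583 arms. The ranges of the genotypes did not overlap for 2 of the 9 arms, both lower in Ago2 CD, and for 173 of all arms, or 29.7%. The ranges of libraries of 50 and 46 nt did not overlap for 7 of the 9 arms and for 353 of all arms, or 60.5%. Within both pairs the mutant was lower for 4 arms, higher for 3 and split for 2, against 187, 223 and 173 of all arms. For 9 arms these counts are near the background.

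With the longest read as a term in the edgeR model the SE of Mir199a-5p fell to 0.12 and its log2 fold change was -0.42, with an unadjusted p of 0.0116 and an adjusted p of 0.115. In this fit Mir199-3p had -0.42 ± 0.18 (adjusted p = 0.235) and Mir199b-5p -0.27 ± 0.16 (adjusted p = 0.365), and the other 6 arms had an adjusted p of at least 0.647. The fit called 10 of 583 arms, none of them a member, and 141 had an unadjusted p under 0.05. The direction depended on the scale. With all arm reads as library size, which counts the 23965 and 9177 reads of mir-451a-5p in Ago2 CD and its 5018791 and 3677788 reads in wildtype, all 9 arms were higher in Ago2 CD and all arms had a median of 0.74; without mir-451a and mir-486 all 9 were lower and the median was -0.12. Relative to the median of all arms, the 3 mir-199 arms were lower under each of these scales and with DESeq2's size factors, by values of -0.50 to -0.31. A change of scale moves all arms nearly alike, and taking off the median removes it. These values are therefore 1 result and not separate checks. Without wildtype replicate 1, which stood apart in some muscle miRNAs, Mir199-3p had -0.31, Mir199b-5p -0.34 and Mir199a-5p 0.47.

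**Figure D2:**
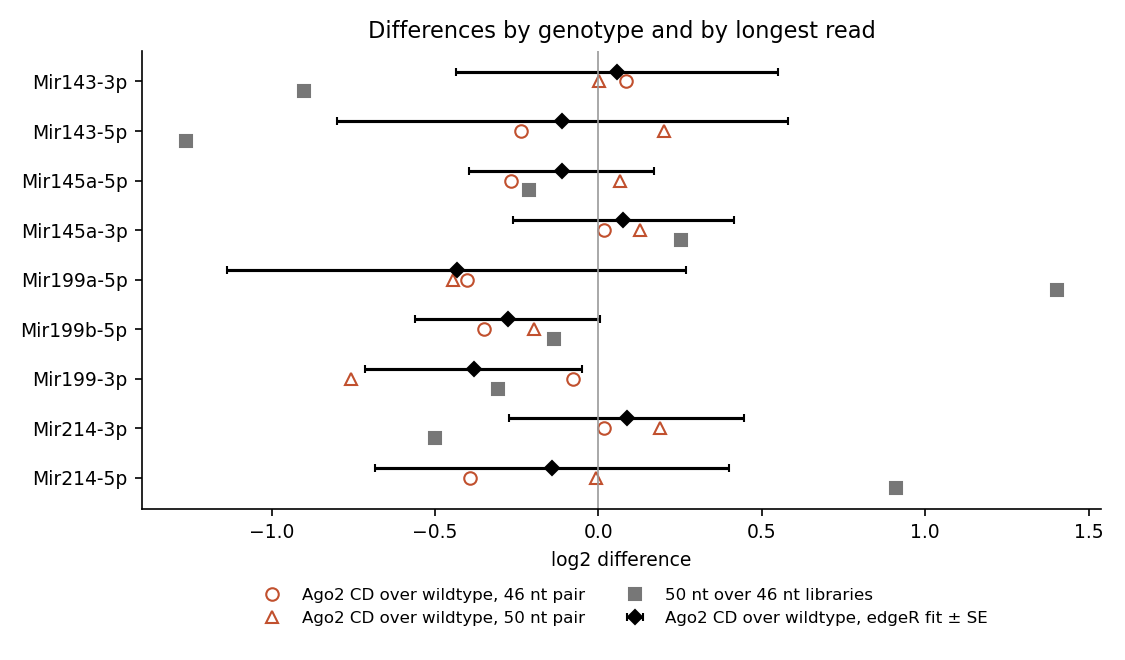
Log2 differences of the 9 arms. Black diamonds are Ago2 CD over wildtype in the edgeR fit with bars of 1 SE, open symbols the same difference within the 46 nt (circles) and 50 nt (triangles) pairs, and grey squares the 50 nt over the 46 nt libraries. The 3 mir-199 arms lie left of 0 in both pairs on the TMM scale, while the fit with all arm reads as library size had them higher, and the grey squares reach -1.26 and 1.40.

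No difference in the balance of the arms was called between genotypes. The log2 ratios of 3p to 5p reads had SEs of 0.54 to 0.84, so that changes of this size could not be seen. Mir143 kept its 3p arm, at 98.8% and 98.9% of its reads in Ago2 CD, against 99.0% and 98.5% in wildtype. Mir145a kept its 5p arm, with a 3p share of 5.05% and 6.37% in Ago2 CD, against 6.13% and 4.19% in wildtype. Counting intervals were at most ± 0.788 percentage points for these hairpins. The log2 ratio of 3p to 5p reads changed by 0.33 and -0.20 within the 46 and 50 nt pairs for Mir143. For Mir145a it changed by 0.28 and 0.06. Mir143 and Mir145a are hairpins 1301 bases apart that keep opposite arms.

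The mir-199 hairpins kept both arms at comparable levels. The 3p share was 58.0% and 28.1% in Ago2 CD replicates 1 and 2, against 33.0% and 52.6% in wildtype replicates 1 and 2, with intervals of at most ± 0.822 percentage points. The 5p arm was thus the main one in both libraries of 50 nt and the 3p arm in both libraries of 46 nt. The log2 ratio of 3p to 5p reads changed by -0.01 ± 0.84 (SE) between genotypes, by 0.32 and -0.33 within the 46 and 50 nt pairs, and by -1.50 between 50 and 46 nt libraries.

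Mir214 kept mainly its 3p arm, at 90.4% and 76.6% in Ago2 CD, against 74.1% and 87.6% in wildtype (intervals of at most ± 2.58 percentage points). The log2 ratio changed by 0.30 ± 0.80 between genotypes, by 0.41 and 0.20 within the 46 and 50 nt pairs, and by -1.42 between 50 and 46 nt libraries. By limma over 227 hairpins the ratio was called for 2, or 0.881%, and for none of the 4 units here, whose adjusted p was at least 0.999. It was at least 0.467 with the longest read in the model.

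**Figure D3:**
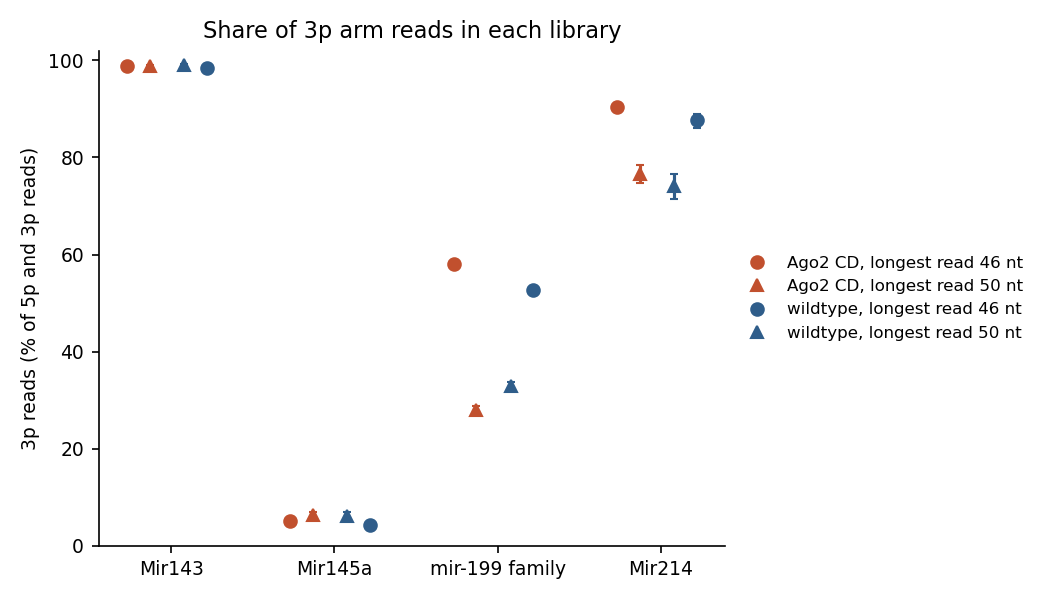
Share of 3p reads among the 5p and 3p reads of Mir143, Mir145a, the merged mir-199 family and Mir214, in percent. Points are libraries, Ago2 CD left of wildtype, with circles for 46 nt, triangles for 50 nt, and bars for exact 95% counting intervals. The mir-199 family is at 58.0% and 52.6% in the 46 nt libraries and at 28.1% and 33.0% in the 50 nt libraries.

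RNAfold predicted that 16 to 18 bases of each 5p arm pair with the hairpin, for arms of 22 or 23 nt, and that no 5p arm is paired at each of bases 9 to 12, around the place where Ago2 slices. Among the 3p arms only that of Mir143 is paired at each of these bases. No templated stretch longer than 27 nt was found on any of the 9 arms in any library, where 3 reads would have marked the detection limit. Hairpins longer than the longest read could not be seen.

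The 3' ends of reads followed the longest read. The most frequent Mir199a-5p read was the 23 nt form printed above, with 5140 and 7345 reads in Ago2 CD, against 6334 and 3005 in wildtype. Templated reads of 23 nt, nearly all of this form, were 56.4% and 64.6% of the arm in Ago2 CD replicates 1 and 2, against 65.2% and 56.0% in wildtype replicates 1 and 2. The shortest forms were found mostly in 1 pair of libraries each. The 18 nt read had 42 and 734 reads in Ago2 CD replicates 1 and 2, against 575 and 44 in wildtype replicates 1 and 2. The 16 nt read had 363 and 0 reads in Ago2 CD, against 0 and 538 in wildtype. These reads start at the same base and lose the 3' end.
18 nt read: cCCAGUGUucagacuacc
16 nt read: cCCAGUGUucagacua

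Of the 270 member reads with 40 or more copies in all, 8 were found in libraries of 46 nt and not in those of 50 nt, 9 in libraries of 50 nt and not in those of 46 nt, and 0 in libraries of 1 genotype and not of the other. Mir199-3p cut to 18 nt was found almost wholly in the libraries of 46 nt, with 506 and 3 reads in Ago2 CD replicates 1 and 2, against 3 and 235 in wildtype replicates 1 and 2. Whether trimming of the reads or the preparation of the libraries set these differences was not tested.

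Mean read length, tails included, differed by at most 0.10 nt between genotypes. Mir143-3p averaged 21.17 and 21.10 nt in Ago2 CD, against 21.19 and 21.26 nt in wildtype, and Mir199b-5p 22.43 and 22.39 nt against 22.50 and 22.52 nt. For both arms the exact permutation p was 0.333 (two-sided), the smallest that 2 against 2 libraries allow. With templated reads only, the genotypes overlapped for both arms. Mir143-3p then averaged 20.75 and 20.69 nt in Ago2 CD, against 20.65 and 20.77 nt in wildtype. Mir199b-5p averaged 22.36 and 22.27 nt in Ago2 CD, against 22.27 and 22.47 nt in wildtype. For Mir199-3p the 21 nt form made up 42.8% and 41.8% of templated reads in Ago2 CD, against 47.9% and 43.6% in wildtype. Its 22 nt form made up 40.5% and 30.6% in Ago2 CD, against 32.6% and 39.0% in wildtype.

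**Figure D4:**
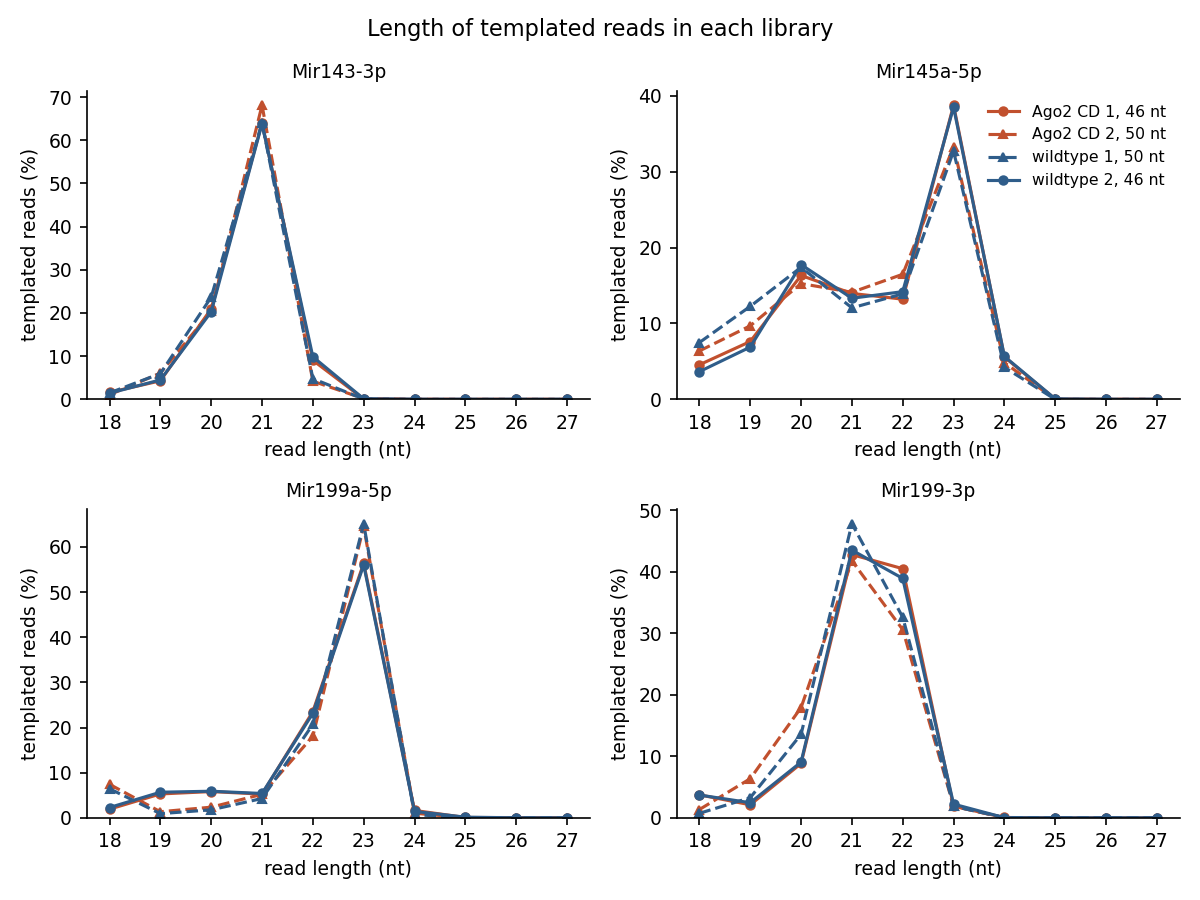
Length of templated reads of Mir143-3p, Mir145a-5p, Mir199a-5p and Mir199-3p, in percent of the templated reads of 18 to 27 nt of each library. Solid lines with circles are 46 nt libraries and dashed lines with triangles 50 nt libraries, for Ago2 CD (red) and wildtype (blue). Lines of equal longest read lie closest together for Mir199a-5p, with 56.4% and 56.0% at 23 nt in the 46 nt pair.

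The 5' end sets the seed, and the most frequent start was the same in all libraries for 8 of the 9 arms. On Mir145a-3p 2 starts competed: the first held 43.9% and 52.2% of reads in Ago2 CD, against 62.4% and 40.1% in wildtype, and the one 2 bases upstream 43.6% and 39.2% in Ago2 CD, against 26.1% and 48.3% in wildtype. Mir214-3p had a second start 1 base upstream, which moves its seed, in 31.4% and 31.2% of its reads in Ago2 CD, against 32.0% and 31.2% in wildtype. The 4 shares differed by less than their counting intervals of at most ± 3.19 percentage points. Mir199-3p had the same kind of upstream start in 9.45% and 11.6% of reads in Ago2 CD, against 10.04% and 9.56% in wildtype. The upstream forms are printed with bases 2 to 8 in capitals.
Mir214-3p, 1 base upstream: uACAGCAGgcacagacaggcag
Mir199-3p, 1 base upstream: uACAGUAGucugcacauugguu

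The first of these had 558 and 125 reads in Ago2 CD, against 79 and 203 in wildtype, and the second 1003 and 399 against 366 and 453. Mir145a-5p lost its first 3 bases in 2.43% and 17.9% of reads in Ago2 CD replicates 1 and 2, against 21.4% and 2.22% in wildtype replicates 1 and 2, and its main start held 87.8% and 69.2% against 62.2% and 88.2%. Mir199a-5p kept its main start in 84.0% and 90.7% of reads in Ago2 CD, against 94.1% and 84.2% in wildtype. Mir143-3p kept it in 95.7% and 97.1% in Ago2 CD, against 96.6% and 95.8% in wildtype. For Mir145a-5p, Mir199a-5p and Mir143-3p the libraries ordered by longest read. The same held for both starts of Mir145a-3p given above.

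Tails differed between arms in their base and their share. Mir143-3p carried U tails, Mir214-3p A tails, and Mir199a-5p few tails of any kind. Uridine and adenosine at the 3' end of a miRNA are known to be added by terminal nucleotidyltransferases. Of all Mir143-3p reads of 18 to 27 nt, 32.0% and 37.2% were tailed in Ago2 CD replicates 1 and 2, against 42.0% and 37.7% in wildtype replicates 1 and 2. Of Mir214-3p reads 35.2% and 44.9% were tailed in Ago2 CD, against 40.2% and 37.0% in wildtype. The share of tailed reads was called for none of the 277 arms tested by limma, or 0%, and 0 had an unadjusted p under 0.05; the adjusted p of the 8 member arms in this test was 0.999. Mir143-5p had too few reads for it.

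Tails that began with C were a feature of the 50 nt libraries. Single C tails made up 2.24% to 16.7% of reads over the 9 arms in those libraries, in both genotypes, against 0% to 0.448% in the 46 nt libraries. For Mir143-3p single C tails were 0.122% and 12.9% in Ago2 CD replicates 1 and 2, against 10.9% and 0.120% in wildtype replicates 1 and 2. The Mir199a-5p read with a C after 21 templated bases had 0 and 328 reads in Ago2 CD, against 254 and 0 in wildtype. It also equals the 22 nt read with a mismatch at its last base, and the matching cannot tell these apart.
Mir199a-5p with C tail: cCCAGUGUucagacuaccuguc

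Tails that began with U made up 31.0% and 23.3% of Mir143-3p reads in Ago2 CD replicates 1 and 2, against 30.4% and 36.5% in wildtype replicates 1 and 2 (intervals of at most ± 1.04 percentage points). The difference of Ago2 CD minus wildtype was -5.51 percentage points in the 46 nt pair and -7.07 in the 50 nt pair. The commonest such form, the 21 nt read with a single U, had 10188 and 1880 reads in Ago2 CD, against 1754 and 5593 in wildtype. For single tails other than C, with the longest read in the limma model, the log2 odds of a tail on Mir143-3p were lower in Ago2 CD by -0.45 ± 0.096 (SE), with an unadjusted p of 0.0250 and an adjusted p of 0.389. Of the 277 arms 35 had an unadjusted p under 0.05 in that fit and 0 were called. The fit was added after the data were seen.

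A tails made up 27.1% and 25.3% of Mir214-3p reads in Ago2 CD, against 26.1% and 27.8% in wildtype. Within each pair they differed by less than the counting intervals of at most ± 2.32 percentage points. Single A tails were 10.8% and 8.49% in Ago2 CD, against 8.33% and 11.9% in wildtype, and tails of 2 nt, led by AU and AA, were 13.2% and 14.98% in Ago2 CD, against 14.7% and 12.9% in wildtype. The form that ends in AU had 194 and 78 reads in Ago2 CD, against 41 and 83 in wildtype, and is printed below.
Mir214-3p with AU tail: aCAGCAGGcacagacaggcaguau

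Tails that began with U on Mir199b-5p were at 4.84% and 10.3% in Ago2 CD, against 14.5% and 4.81% in wildtype. On the near-identical Mir199a-5p they were at 5.89% and 5.35% in Ago2 CD, against 5.07% and 4.74% in wildtype. The Mir199b arm thus split by longest read in its U tails and the Mir199a arm did not. On Mir199-3p U tails were at 8.13% and 17.9% in Ago2 CD, against 13.8% and 8.02% in wildtype. Part of the reads counted as U tails in the 50 nt libraries was 1 form with the bases UUU after base 18. It had 59 and 548 reads in Ago2 CD, against 272 and 41 in wildtype. The hairpins have GUU at this place. This form therefore also equals the 21 nt read with 1 mismatch, and an addition of 3 bases is not shown.

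**Figure D5:**
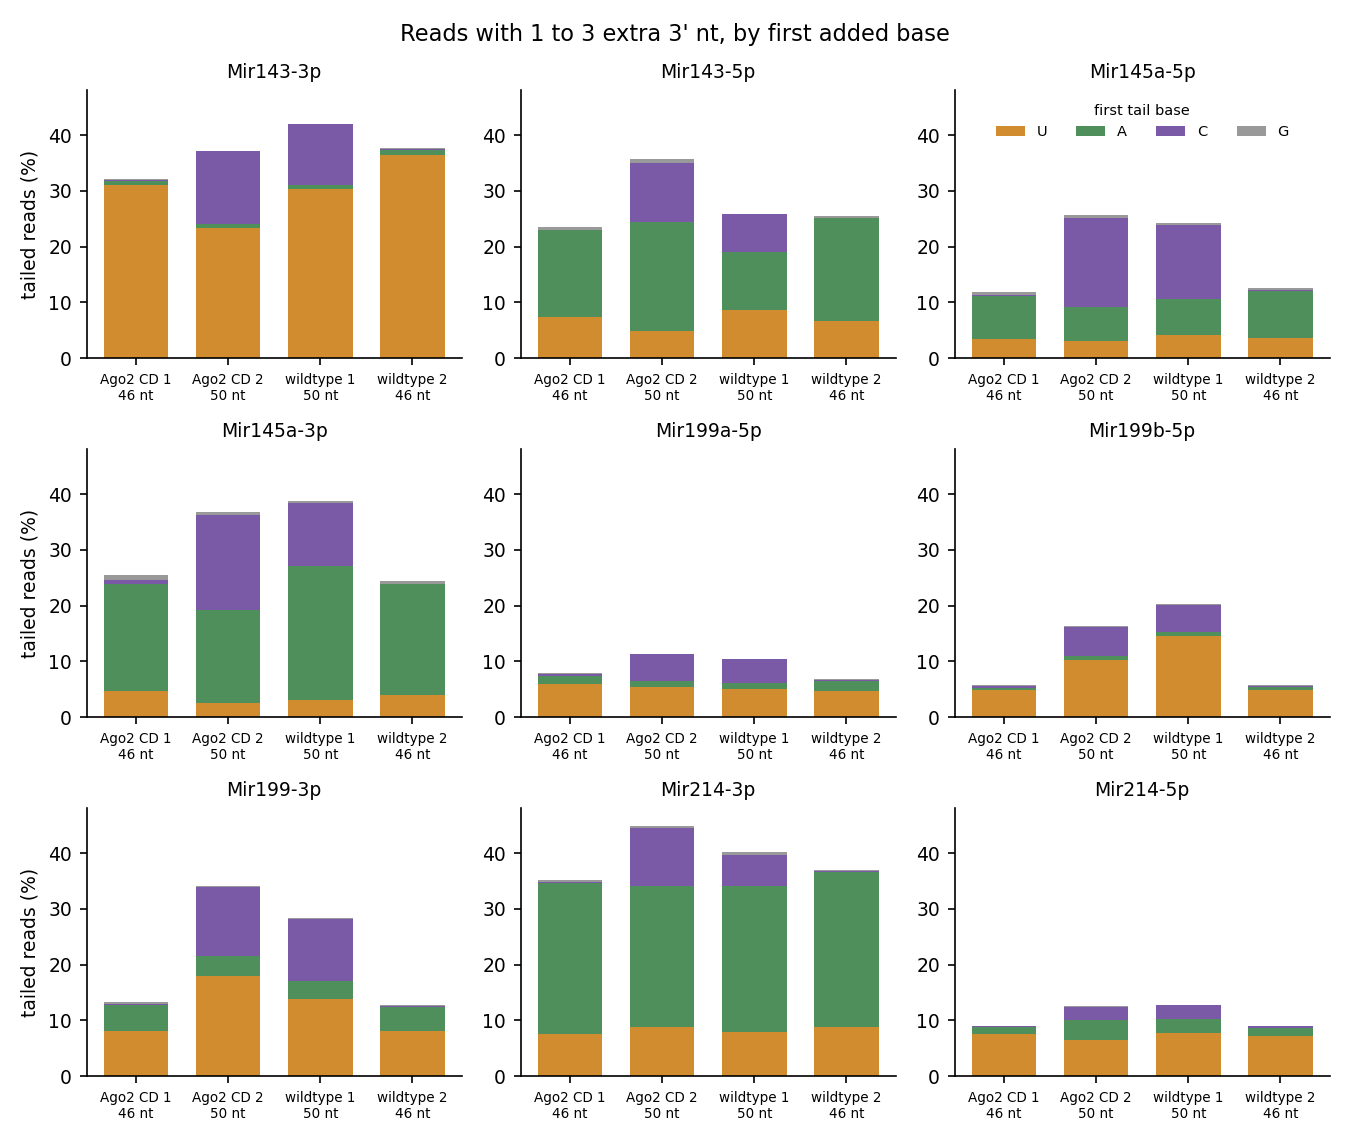
Share of reads with 1 to 3 extra 3' nucleotides on the 9 arms, in percent of reads of 18 to 27 nt, coloured by the first added base. Bars are libraries, Ago2 CD left of wildtype, with the longest read under each name. C tails stand in the 50 nt libraries, U tails lead on Mir143-3p and A tails on Mir214-3p.

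Mir143 and Mir145a lie on the minus strand of chromosome 18, at 61649196 to 61649258 and 61647825 to 61647894 (GRCm38.p6), outside any annotated gene, with the noncoding genes Carmn and Bvht nearest at 367 and 353 bases. Fragments of host and overlapping transcripts were rare among reads of 20 nt or longer. Dnm3os, the host of Mir199a-2 and Mir214, had 0 and 2 reads in Ago2 CD and 0 and 0 in wildtype, and Carmn had 0 and 0 in Ago2 CD and 0 and 2 in wildtype. Counts of Dnm3os and Carmn were below the detection limit of 3 reads, so that no change in them was detectable at this depth. Dnm2, whose intron lies opposite to Mir199a-1, had 13 and 15 reads in Ago2 CD, against 3 and 3 in wildtype, which were 67.0 and 92.7 per 1000000 mRNA fragments in Ago2 CD, against 51.3 and 46.3 in wildtype. Dnm3 had 1 and 4 reads in Ago2 CD, against 1 and 2 in wildtype, and Dnm1 had 1 and 3 against 0 and 0.

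mRNA fragments of mesenchymal genes offered another readout of these cells in the same libraries. The 12 genes of the list, among them collagens, Sparc, Vim and Fn1, summed to 1831 and 1786 per 1000000 mRNA fragments in Ago2 CD, against 1676 and 1883 in wildtype, a ratio of means of 1.02. Per read outside the mir-451a hairpin the ratio was 1.49, so that it depended on the scale. Fn1, which hepatocytes also make, gave 214 and 170 of the 355 and 289 reads in Ago2 CD, against 60 and 86 of the 98 and 122 reads in wildtype, so that it carried most of the sum. The other genes did not move as one. Col3a1, a collagen of fibroblasts, was at 170 and 192 per 1000000 in Ago2 CD, against 188 and 139 in wildtype. Sparc, a matrix protein that binds collagen, was at 124 and 55.6 in Ago2 CD, against 34.2 and 30.9 in wildtype, from 24 and 9 reads against 2 and 2. Col1a1 was at 149.5 and 204 in Ago2 CD, against 119.7 and 123 in wildtype, and Col1a2 at 87.7 and 111 against 103 and 139. None of these was tested. Smooth muscle genes summed to 46.4 and 49.4 per 1000000 in Ago2 CD, against 137 and 30.9 in wildtype, from 9 and 8 reads in Ago2 CD and 8 and 2 in wildtype. The ratio of means was 0.572, and 1.55 without wildtype replicate 1, where Mylk gave 7 of the 8 reads. The stellate cell list summed to 407 and 463 per 1000000 in Ago2 CD, against 530 and 386 in wildtype, nearly all from Reln, with a ratio of 0.951, or 1.43 per read outside the mir-451a hairpin. The summed level of the 9 arms was 3729 and 3440 CPM in Ago2 CD, against 4193 and 4009 in wildtype, on the TMM scale. In the fit with all arm reads as library size all 9 arms were higher in Ago2 CD.

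Other miRNAs known from connective tissue, stellate cells, cartilage or smooth muscle were also without a call. Which cells of the bulk tissue gave their reads was not tested. Of 40 arms of this list 32 were tested and 0 were called, with 15 higher and 17 lower in Ago2 CD, a median log2 fold change of -0.10 and 0 arms at an unadjusted p under 0.05. miR-140-5p, a miRNA of cartilage, had the lowest value of those above 100 CPM, at 172 and 67.6 CPM in Ago2 CD against 115 and 256 CPM in wildtype (-0.63 ± 0.65). miR-24-3p followed with -0.26. miR-22-3p had the highest, at 4408 and 9263 CPM in Ago2 CD against 7292 and 3049 CPM in wildtype (0.40 ± 0.61), and miR-21a-5p followed with 0.25. miR-140-5p was lower, and miR-22-3p higher, in the 50 nt library of each genotype.

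The arms whose log2 CPM ran closest to Mir143-3p over the 4 libraries were miR-152-3p, the shared arm of Mir28a and Mir28c, and miR-540-5p, each with a Pearson r above 0.99 that 20 of 202 arms reached. miR-152-3p was at 442 and 388 CPM in Ago2 CD, against 387 and 438 in wildtype. miR-540-5p was at 241 and 68.7 CPM in Ago2 CD, against 67.2 and 224 in wildtype. With 4 libraries that fall into 2 pairs by longest read, such values describe the split by read length.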

How the data were processed

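The authors deposited raw counts, 1 file per library, in which every different read stands once beside its number of copies. The submitters' processing notes name cutadapt, an adapter trimmer; its version and settings are not given in the sources used here, nor is a build. Per the labels' protocols, libraries were made with a modified TruSeq small RNA procedure. Reads were matched without mismatch to GENCODE vM21 hairpins, put on an arm by their midpoint, and near-identical arms were merged; arms held 14423015 and 7814101 reads in Ago2 CD, against 9684832 and 9178672 in wildtype. Levels were tested with edgeR 4.0.16 (TMM, filterByExpr), with DESeq2 1.42.0 as an alternative. Arm ratios (hairpins with at least 20 reads per library) and tailed shares (arms with at least 200) were tested with limma 3.58.1 on log2 odds with 0.5 added. Hairpins were folded with RNAfold 2.7.2. The fits were tested on simulated data. Intervals and the limit of 3 reads cover counting error only, since reads carry no molecular identifiers. Members, gene lists and tests were chosen with earlier results of these data known. All arms of the 6 hairpins are named, and of the other mesenchymal arms above 100 CPM the 2 highest and 2 lowest by fold change. Same-numbered replicates deviated in opposite directions from their genotype means (correlation -0.72). With 2 libraries per genotype the correlation of differently numbered replicates must be its mirror (0.72). These values therefore cannot show whether the numbers pair libraries. The p-values measure the spread between the libraries given.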

Additional observations from a re-analysis of the deposited data

How the results depend on the processing

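No level, arm ratio or tailed share of a member was called under any setting tried. An unadjusted p under 0.05 was given by Mir199a-5p with the longest read in the model, and by Mir143-3p for single tails other than C in that model. Levels reversed with arm reads as library size for Mir143-5p (0.50), Mir145a-5p (0.56), Mir199-3p (0.36), Mir199a-5p (0.40), Mir199b-5p (0.42) and Mir214-5p (0.62), and without mir-451a and mir-486 for Mir143-3p (-0.11), Mir145a-3p (-0.072) and Mir214-3p (-0.083). With tailed reads counted the level of Mir143-3p was -0.075, and the ratios of Mir143 and mir-199 were -0.14 and 0.046. For tails of 1 nt other than C, Mir145a-5p had -0.13, Mir214-3p -0.00078 and Mir214-5p 0.091; for tails starting with A or U Mir145a-5p had -0.15. The replicate block gave 0 called members and log2 fold changes of -0.42 for Mir199-3p and Mir199a-5p; it called 2 of all arms. Crossed pairing of the numbers, chosen after seeing the data, equals the fit with the longest read and called 10 of all arms, against 2. Leaving out each library in turn gave levels of -0.48 to 0.59 for Mir143-3p, -0.73 to 0.88 for Mir143-5p, -0.070 to 0.24 for Mir145a-3p, -0.25 to 0.12 for Mir145a-5p, -1.26 to 0.47 for Mir199a-5p, -0.13 to 0.44 for Mir214-3p and -0.78 to 0.33 for Mir214-5p. It gave ratios of -0.25 to 0.38 for Mir143, -0.12 to 0.46 for Mir145a, -0.92 to 0.90 for mir-199 and -0.46 to 1.07 for Mir214. It gave tail odds of -0.50 to 0.47 for Mir145a-3p, -0.68 to 0.68 for Mir145a-5p, -0.66 to 1.11 for Mir199-3p, -0.16 to 0.50 for Mir199a-5p, -1.21 to 0.84 for Mir199b-5p, -0.21 to 0.38 for Mir214-3p and -0.29 to 0.27 for Mir214-5p. Mir199-3p and Mir199b-5p kept lower levels in Ago2 CD in each of these 4 fits, all on the TMM scale. For these 2 arms both Ago2 CD libraries lay below both wildtype libraries, so leaving 1 out could hardly change the sign. This is therefore no further check. The cause of the reversals listed above was not tested. Each pair of equal longest read holds 1 library of each genotype, so that the replicate error in its differences could not be estimated.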
